A study of Bubalus bubalis with 2 samples.

Results

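The immediate early response genes are genes that cells switch on within minutes of a stimulus, without first making new protein. Those examined here were FOS, FOSB, JUN, JUNB, JUND, EGR1, ATF3, IER2, IER3 and MYC, chosen by symbol from the gene table of a study of buffalo saliva. Of the 10 genes, 9 had a row among the 20905 genes of the table, and JUND was not analysed here. The libraries were of cell-free total RNA from the saliva of Murrah water buffalo, which is a dairy breed of the river type, with 1 library labelled estrus, the stage of sexual receptivity, and 1 labelled diestrus, the luteal stage. No treatment was given to either, and the number and age of the animals behind each library are not given in the sources used here. Since each stage has 1 library, the spread between animals is unknown, no test of the stages was possible, and every difference below describes these 2 libraries.

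Growth factors, stress and inflammatory signals reach these genes through MAP kinases and through transcription factors already present in the cell, such as SRF and its ETS-family partners and CREB. FOS and JUN proteins pair to form AP-1, a dimeric transcription factor, and EGR1 and MYC bind other DNA motifs and drive later waves of genes. The transcripts carry AU-rich elements in many cases and are short-lived, and several of them are also induced when tissue is handled. AP-1 is a known activator of the gene for TIMP1, the inhibitor of metalloproteinases that the series title puts forward.

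The immediate early genes did not move together between the libraries. EGR1, JUNB, MYC and FOSB were lower in the estrus library, FOS was listed at 0 there and above 0 in the diestrus library, IER3 was higher, and JUN, IER2 and ATF3 lay within 2-fold. In bulk RNA such as this, fewer cells of a type shedding RNA and less RNA per cell cannot be told apart. Levels are given as FPKM, fragments scaled to transcript length and to library size, which allows levels of different genes to be set side by side. Ratios are log2((estrus FPKM + 1)/(diestrus FPKM + 1)), a scale that understates the change of low genes, and a gene was called at 2-fold or more. Of the 9 genes 1 was called higher at estrus, where 31.3% of all 8269 genes with a mean of at least 1 FPKM were, and 5 were called lower, where 33.1% of all were; 4 of these 5 were above 0 in both libraries and the other is FOS, whose listed 0 can be a failed estimate. Their median log2 ratio was -1.68, against -0.016 over all counted genes. That median is the value of 1 gene, FOSB, which had low depth as given below. Without FOS the median of the remaining 8 was -0.81, midway between FOSB and IER2. Over all counted genes above 0 in both libraries it was 0.13.

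**Figure D1:**
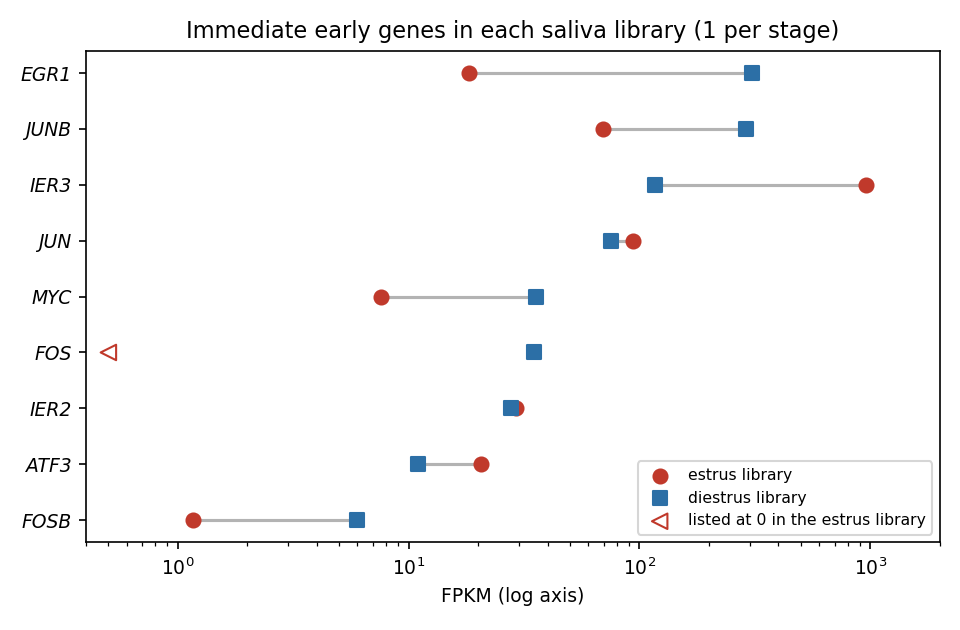
FPKM of the 9 immediate early genes (log axis) in the estrus library (circles) and the diestrus library (squares), with 1 library per stage and so no error bars; the open triangle marks FOS, listed at 0 at estrus and drawn at the left edge. EGR1 and JUNB lead at diestrus at 306 and 289 FPKM, and IER3 leads at estrus at 954 FPKM.

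The libraries differed in depth. On short loci the FPKM values fell on steps of whole fragments, and 1 fragment on 1 kb was worth 0.233 FPKM at estrus and 1.25 FPKM at diestrus, so that a fragment weighed 5.38 times as much at diestrus. A level of 3 fragments per kb stood at 0.699 FPKM at estrus and at 3.76 FPKM at diestrus, and every value above 0 of the 9 genes lay above it. The sum of all FPKM was 1016096 at estrus and 521566 at diestrus, and ratios are as deposited unless a rescaling is named. With equal sums 20.1% of all counted genes were called higher and 47.9% lower, and the median over all counted genes dropped by 0.86. Equal upper quartiles, and equal sums without the 10 highest rows of either library, shifted that median by -0.33 and -0.47.

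The FOS family supplies a partner with which JUN proteins bind DNA more strongly, and FOS proteins do not pair with each other. FOS, on chromosome 10 of the table (86883739 to 86887169), was listed at 0 FPKM at estrus and stood at 34.9 FPKM at diestrus, a level of 27.9 fragments per kb. No fold is given for FOS, because of that listed 0. A listed 0 at estrus alone was not particular to FOS. Across all 20905 genes, 2147 were listed at 0 at estrus only, and 1080 at diestrus only. Genes above 0 numbered 8424 at estrus and 9491 at diestrus, although the diestrus library was the shallower. NPM1 and FBL, nucleolar proteins that growing cells make in quantity, were listed at 0 in both libraries and are named after their values were seen. FOSB, a close relative of FOS on chromosome 18 (53501995 to 53508395), stood at 1.17 FPKM at estrus and 5.96 FPKM at diestrus. Its log2 ratio was -1.68, or 3.21-fold lower at estrus, and -0.51, under 2-fold, with a pseudocount of 10. That ratio rests on 5.01 fragments per kb at estrus and 4.76 fragments per kb at diestrus, the lowest depth among the genes above 0 in both libraries. FOSB was the least abundant of the 9 genes at diestrus.

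The JUN family members pair with FOS or with each other. JUN, the archetype, on chromosome 3 (87841042 to 87843087), stood at 94.1 FPKM at estrus and 75.3 FPKM at diestrus, a log2 ratio of 0.32. The direction for JUN turned to -0.066 with equal upper quartiles, to -0.22 with equal sums without the highest rows and to -0.64 with equal sums, while it was 0.23 with equal medians. JUNB, which is often a weaker activator than JUN and can oppose it, lies on chromosome 7 (13851131 to 13852933). JUNB stood at 69.6 FPKM at estrus and 289 FPKM at diestrus, a log2 ratio of -2.04, or 4.10-fold lower at estrus. JUNB lay below JUN at estrus and above it at diestrus: the FPKM of JUNB over that of JUN was 0.740 at estrus and 3.83 at diestrus. This comparison within a library is free of the scaling between libraries.

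JUN and JUNB are single-exon genes in human and mouse; on that basis their locus spans can stand for transcript lengths and their values can be turned into approximate fragments. JUN came to about 753 fragments at estrus and 112 fragments at diestrus. The exact (Clopper-Pearson) 95% interval of the ratio without a pseudocount ran from 0.034 to 0.62 in log2 for JUN. JUNB came to about 484 fragments at estrus and 373 fragments at diestrus, with an interval from -2.25 to -1.85. These intervals cover counting error only, not the spread between animals, and reads without molecular identifiers are not independent molecules. Counting error alone was thus far smaller than the difference in JUNB, whereas the difference in JUN was smaller than its shift under 3 of the 4 rescalings, equal medians being the exception.

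EGR1, a zinc-finger factor that answers serum, wounding and gonadotropin signals, lies on chromosome 7 (51438727 to 51442500) and differed most among the 8 genes above 0 in both libraries. EGR1 stood at 18.3 FPKM at estrus and 306 FPKM at diestrus. The log2 ratio was -4.00, or 15.9-fold lower at estrus, and 3.47% of all counted genes had a lower ratio. EGR1 was the most abundant of the 9 genes at diestrus, where 97.3% of the genes above 0 lay below it, and it ranked below IER3, JUN, JUNB, IER2 and ATF3 at estrus, where 67.7% did. Depth was 78.4 fragments per kb at estrus and 244 fragments per kb at diestrus. Set against JUN within each library, the FPKM of EGR1 was 0.194 of that of JUN at estrus and 4.06 times it at diestrus.

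ATF3, a stress-induced factor that pairs with JUN and often represses its targets, lies on chromosome 16 (72820026 to 72832974). ATF3 stood at 20.6 FPKM at estrus and 11.03 FPKM at diestrus, a log2 ratio of 0.85 that lay under 2-fold. The ratio was -0.055 with equal sums and above 0 under the other 3 scalings tried. The diestrus value rests on 8.81 fragments per kb.

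IER2 and IER3 were named for their rapid induction and are not relatives of the factors above. IER3 (also called IEX-1), which modulates apoptosis and ERK and NF-kB signalling, lies on chromosome 23 (28088456 to 28089722). IER3 stood at 954 FPKM at estrus and 117 FPKM at diestrus, a log2 ratio of 3.02, or 8.10-fold higher at estrus. Its ratio was exceeded by 7.09% of all counted genes. IER3 held 79.9% of the summed FPKM of the 9 genes at estrus, so that the sum was 1194 FPKM at estrus and 902 FPKM at diestrus with it, and 240 and 786 FPKM without it. IER2, a nuclear protein on chromosome 7 (13543664 to 13545435), stood at 29.1 FPKM at estrus and 27.9 FPKM at diestrus. The log2 ratio of 0.059 for IER2 was the closest to 0 of the 8, and its sign turned under all 4 scalings, to between -0.024 and -0.88. The FPKM of IER3 was 32.8 times that of IER2 at estrus and 4.19 times at diestrus.

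MYC, a helix-loop-helix factor that drives ribosome production and cell growth, lies on chromosome 14 (13769244 to 13774438). MYC stood at 7.58 FPKM at estrus and 35.7 FPKM at diestrus, a log2 ratio of -2.10, or 4.28-fold lower at estrus. Depth was 32.5 fragments per kb at estrus and 28.5 fragments per kb at diestrus. MYC was the lowest of the 9 genes at estrus apart from FOSB and FOS.

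**Figure D2:**
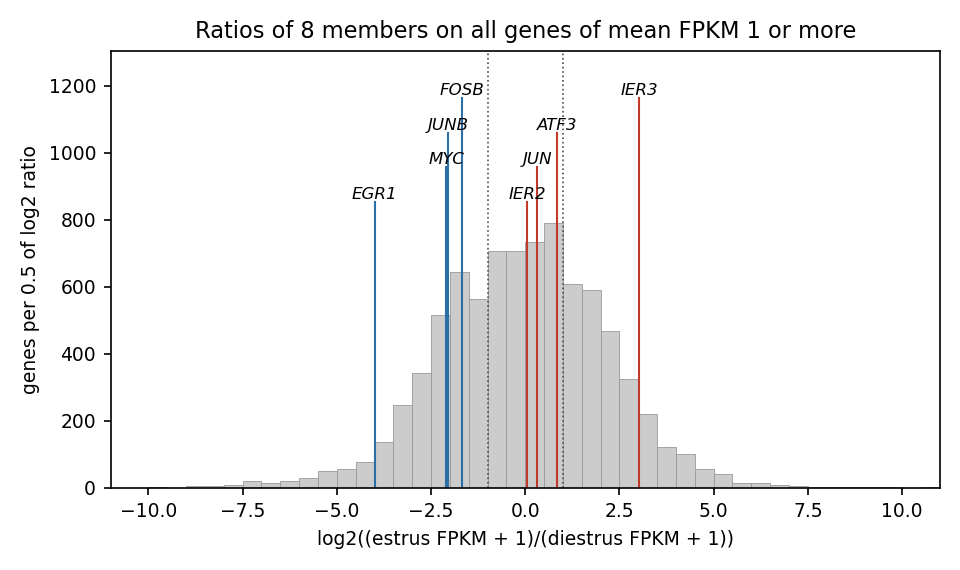
Number of genes (y axis) by log2((estrus FPKM + 1)/(diestrus FPKM + 1)) (x axis) for all 8269 counted genes (grey bars), with the ratios of the 8 immediate early genes above 0 in both libraries as vertical lines; dotted lines mark 2-fold. EGR1 at -4.00 and IER3 at 3.02 lie towards the tails, and JUN, IER2 and ATF3 lie between the dotted lines.

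The order of levels thus differed between the libraries. From high to low it was IER3, JUN, JUNB, IER2, ATF3, EGR1, MYC and FOSB at estrus, with FOS listed at 0, and EGR1, JUNB, IER3, JUN, MYC, FOS, IER2, ATF3 and FOSB at diestrus. In diestrus EGR1 and JUNB stood close, at a ratio of 1.06, and so did MYC and FOS at 35.7 and 34.9 FPKM, and no spread is available to separate such neighbours.

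**Figure D3:**
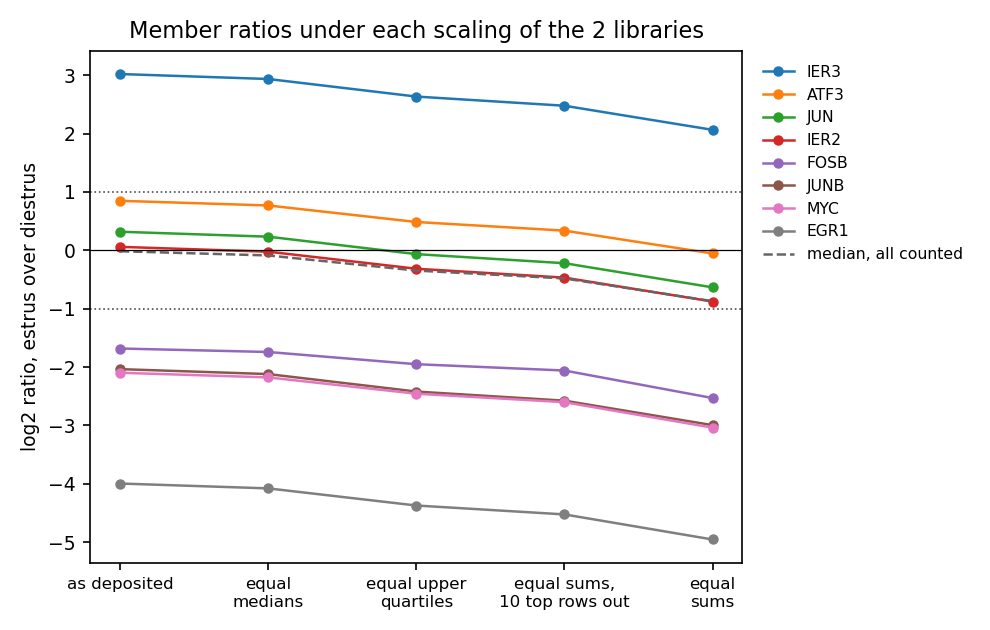
Log2 ratio of estrus over diestrus (y axis) of the 8 immediate early genes above 0 in both libraries under the deposited FPKM scale and 4 rescalings of the libraries (x axis); the dashed line is the median of all counted genes and dotted lines mark 2-fold. IER3 stays above the upper dotted line and EGR1, MYC, JUNB and FOSB below the lower one at each scaling, while ATF3, JUN and IER2 stay between the dotted lines and cross 0.

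Of the 9 genes 4 had a p-value under 1 in the authors' deposited table, as 1253 of all 20905 genes had. The deposited p-value was 0.153 for JUNB, 0.243 for IER3, 0.273 for EGR1 and 0.859 for JUN. The q-value was 0.797 for JUNB, IER3 and EGR1 and 0.881 for JUN. For FOS, FOSB, ATF3, IER2 and MYC the deposited p-value was 1, so these were taken as not tested by the authors. The smallest q-value of the deposited table was 0.0646.

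Relatives of these factors were next described as lists, read against the shares of 31.3% higher and 33.1% lower over all counted genes. Among other FOS, JUN and ATF family genes 3 of 15 counted were higher at estrus, 8 lower and 4 between, with a median log2 ratio of -1.43. The 5 counted members listed at 0 at estrus weighed on this, and the median of the other 10 was -0.12. FOSL2, a FOS relative that is induced more slowly, stood at 0.102 FPKM at estrus, under the level of 3 fragments per kb, and 17.3 FPKM at diestrus. FOSL1, named after its values were seen, stood at 13.3 FPKM at estrus and 3.64 FPKM at diestrus, the latter under 3 fragments per kb. ATF4, the main factor of the integrated stress response, stood at 220 FPKM at estrus and 418 FPKM at diestrus, and its target DDIT3 at 43.1 and 118 FPKM. ATF5, also of the stress response, stood at 18.3 and 117 FPKM. MAFG had the highest ratio of the list, at 2525 FPKM at estrus and 3.25 FPKM at diestrus, the latter under 3 fragments per kb.

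Among other immediate early transcription factors 3 of 18 counted were higher at estrus, 8 lower and 7 between, with a median log2 ratio of -0.72. That median was -0.12 over the 16 above 0 in both libraries and turned to 0.21 with a mean of at least 10 FPKM. Over all genes the medians were 0.13 for those above 0 in both libraries and 0.51 with a mean of at least 10 FPKM. KLF4, a factor of epithelial differentiation, stood at 5.82 FPKM at estrus and 86.7 FPKM at diestrus, a log2 ratio of -3.68. ID2, an inhibitor of helix-loop-helix factors, stood at 31.3 FPKM at estrus and 175 FPKM at diestrus, whereas its relative ID3 stood at 276 and 231 FPKM. EGR2 differed from EGR1 in direction, at 6.82 FPKM at estrus and 0.803 FPKM at diestrus, although that diestrus value lies under 3 fragments per kb. EGR3 and EGR4, named after their values were seen, were listed at 0 in both libraries. IER5L stood at 248 FPKM at estrus and 121 FPKM at diestrus, a log2 ratio of 1.03, and NFIL3 at 46.1 and 92.5 FPKM.

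Genes whose products restrain the early response included SOCS3 and SOCS1, which had the lowest ratios among genes above 0 in both libraries in the 8 related lists. Of 25 counted feedback inhibitors 4 were higher at estrus, 10 lower and 11 between, with a median log2 ratio of -0.79. SOCS3, an inhibitor of cytokine receptor signalling, stood at 3.60 FPKM at estrus and 431 FPKM at diestrus, a log2 ratio of -6.55. SOCS1, of the same family, stood at 6.37 FPKM at estrus and 488 FPKM at diestrus, a log2 ratio of -6.05. BTG1, an antiproliferative cofactor of mRNA decay, stood at 61.2 and 193 FPKM, while ZFP36L1, which directs decay of AU-rich transcripts, stood at 245 and 212 FPKM. SPRED1, an inhibitor of RAS signalling, had the highest ratio, at 51.7 FPKM at estrus and 1.97 FPKM at diestrus, the latter under 3 fragments per kb. DUSP1, a phosphatase that switches MAP kinases off, was named after its values were seen and stood at 10.6 and 88.3 FPKM. DUSP6 and NFKBIA, also named after their values were seen, were called higher at estrus. DUSP6 stood at 9.07 and 3.69 FPKM, the latter under 3 fragments per kb, and NFKBIA at 135 and 26.1 FPKM.

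Secreted and effector early genes leaned the other way, with 10 of 21 counted higher at estrus, 6 lower and 5 between, and their median log2 ratio was 0.81 and turned to -0.13 with equal sums. ODC1, the first enzyme of polyamine synthesis and a target of MYC, stood at 1203 FPKM at estrus and 38.3 FPKM at diestrus, a log2 ratio of 4.94. The matricellular genes CTGF and CYR61 stood at 1013 and 794 FPKM at estrus and at 674 and 485 FPKM at diestrus, within 2-fold, whereas NOV of the same family stood at 254 and 1257 FPKM. VEGFA, the angiogenic growth factor, had the lowest ratio of the list, at 17.5 FPKM at estrus and 189 FPKM at diestrus.

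**Figure D4:**
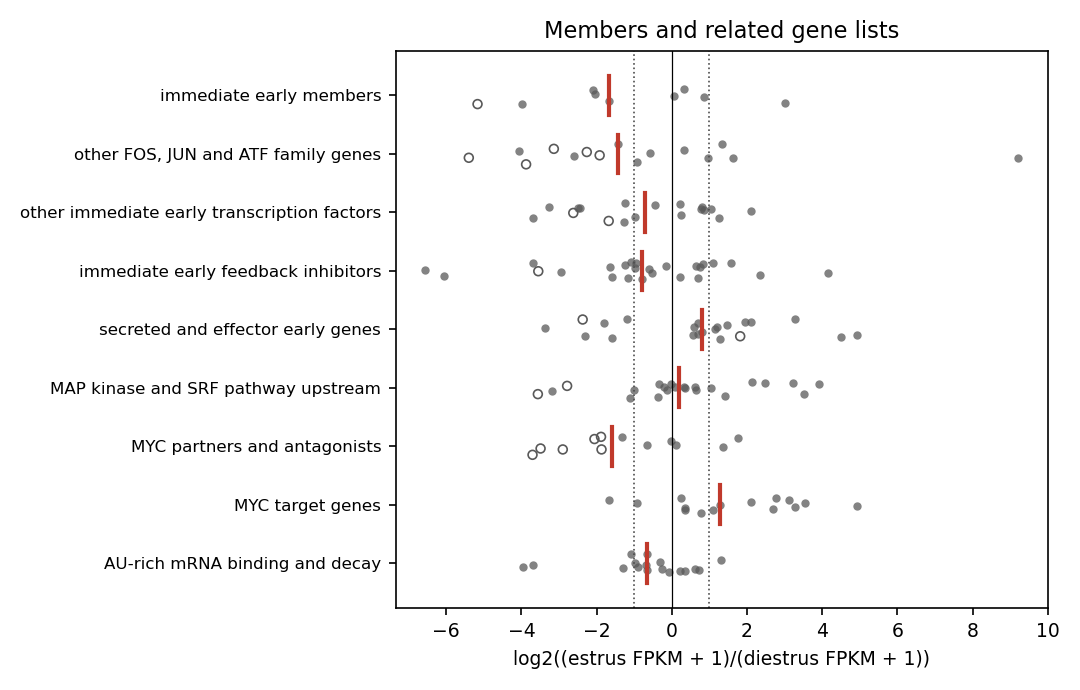
Log2((estrus FPKM + 1)/(diestrus FPKM + 1)) (x axis) of each counted gene of the immediate early genes and of 8 related lists (y axis); filled points are above 0 in both libraries, open points are listed at 0 in one of them, red bars are medians over all points shown and dotted lines mark 2-fold. Medians run from -1.68 for the immediate early genes to 1.28 for the MYC targets.

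Of the MAP kinase and SRF pathway upstream of these genes, 7 of 22 counted were higher at estrus, 4 lower and 11 between, with a median log2 ratio of 0.20 that turned to -0.16 with equal upper quartiles, -0.31 with equal sums without the highest rows and -0.72 with equal sums. Of the SRF partners of the ETS family, ELK1, named after its values were seen, lay within 2-fold at 8.86 FPKM at estrus and 11.7 FPKM at diestrus. ELK3 and ELK4 had the highest and lowest ratios of the list among genes above 0 in both libraries, ELK3 standing at 278 FPKM at estrus and 17.7 FPKM at diestrus and ELK4 at 0.483 and 12.6 FPKM, the former under 3 fragments per kb. The kinase genes MAPK3 (ERK1) and MAP2K3 lay within 2-fold, MAPK3 at 44.0 FPKM at estrus and 34.3 FPKM at diestrus and MAP2K3 at 55.5 and 35.9 FPKM. ARAF, a RAF kinase, stood at 163 FPKM at estrus and 16.6 FPKM at diestrus.

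MYC itself was lower at estrus, and 9 of 15 counted MYC targets were higher there, 1 lower and 5 between, with a median log2 ratio of 1.28 that was 0.38 with equal sums. LDHA and ENO1, glycolytic enzymes, stood at 2800 and 1120 FPKM at estrus and at 436 and 520 FPKM at diestrus. PHB, a mitochondrial scaffold protein, stood at 138 FPKM at estrus and 13.2 FPKM at diestrus, and SRM, spermidine synthase, at 0.507 and 3.78 FPKM, the former under 3 fragments per kb. MYC partners and antagonists had 2 of 12 counted higher, 7 lower and 3 between, with a median log2 ratio of -1.59, but 6 of the 7 were listed at 0 at estrus and the median of the other 6 genes was 0.052. MLX, a partner in the wider MYC network, stood at 31.99 FPKM at estrus and 8.68 FPKM at diestrus, and MXD3, an antagonist, at 8.54 and 2.74 FPKM, the latter under 3 fragments per kb. MYCBP stood at 4.26 and 12.1 FPKM, and MXD4 was listed at 0 at estrus and stood at 12.04 FPKM at diestrus. MAX, the obligate partner of MYC, was listed at 0 in both libraries and is named after its values were seen.

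Genes of AU-rich mRNA binding and of mRNA decay, some of which stabilise transcripts and others clear them, mostly lay within 2-fold. Of 17 counted 12 lay between, 1 was higher and 4 were lower at estrus, with a median log2 ratio of -0.65. Over all counted genes 31.3% were higher and 33.1% lower. ELAVL1, which stabilises AU-rich mRNAs, stood at 82.1 FPKM at estrus and 53.1 FPKM at diestrus, and HNRNPD at 81.0 and 63.7 FPKM. ZFP36 (tristetraprolin), which destabilises them, stood at 43.0 and 93.0 FPKM. The deadenylase genes CNOT7 and CNOT8 had the highest and lowest ratios, CNOT7 at 8.82 FPKM at estrus and 2.98 FPKM at diestrus, the latter under 3 fragments per kb, and CNOT8 at 1.41 and 36.8 FPKM. With equal sums 11 of the 17 genes of this list were lower at estrus.

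Markers of the cells that could shed RNA into saliva also differed between the libraries. Of 8 counted squamous epithelium markers 6 were lower at estrus and 1, KRT6A, was higher at 30046.5 against 323 FPKM. Among the 6, KRT17 stood at 0.174 FPKM at estrus, under 3 fragments per kb, and at 1117 FPKM at diestrus. ECM1, also among the 6, stood at 26.0 and 479 FPKM. The list summed to 30187 FPKM at estrus, nearly all of it KRT6A, and 2479 FPKM at diestrus. The estrus sum thus describes KRT6A more than the list. KRT4, a keratin of the oral lining, and CRNN, a late differentiation protein, were listed at 0 in both. Of 12 fibroblast markers 2 were higher, 2 lower and 8 between, with sums of 16069 and 17755 FPKM and none at 0. Of 12 neutrophil rows 8 were listed at 0 in both libraries, among them CSF3R, CXCR2, MPO and ELANE, and of the 3 counted CYBA was higher at estrus, at 212 against 51.7 FPKM, while S100A9 and S100A12 were listed at 0 at estrus and stood at 15.96 and 5.24 FPKM at diestrus. The neutrophil list summed to 213 FPKM at estrus, nearly all of it CYBA, and 72.9 FPKM at diestrus. Of 8 salivary gland rows 5 were at 0 in both, among them AQP5, STATH and CA6. Of the 3 counted, CST6 and SLPI were higher at estrus, SLPI being listed at 0 at diestrus, and CST3 lay between. The sums of 5521 and 1929 FPKM came mainly from CST6, at 4786 and 1471 FPKM, and so describe that gene more than the list. The markers given here as listed at 0 in both libraries are named after their values were seen. Their part in the differences above was not tested. Of 11 reference genes 5 were higher at estrus, 1 lower and 5 between, with a median log2 ratio of 0.70, so such genes offered no fixed scale.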

How the data were processed

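RNA sequencing of 2 saliva libraries was used, and the stage of each was taken from its label. The labels' protocols name an Illumina TruSeq kit for RNA. TopHat, Bowtie, Cufflinks and Cuffdiff were named by the submitters' processing notes. Tool versions and a genome build are not given in the sources used here. For each gene the authors deposited FPKM values, a log2 fold change (diestrus over estrus, matching the FPKM within 0.001 on 7344 genes), and a p-value and q-value, copied and not recomputed, per the file headers.

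Buffalo RefSeq (NDDB_SH_1) holds all 9 symbols, but 8 carry another chromosome number there, so the coordinates printed are those of the table, counted from 1, of an unnamed build. Starts were read as counting from 0, since 124 of 134 olfactory receptor spans are then multiples of 3. None of the 9 loci overlaps another row. Chromosome numbers in the table run up to 29, and with the 8 differing genes its numbering is not that of this buffalo reference. The species of the build is not named. Mapping to a genome of another species can move a value, as can paralogs and failed estimates.

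Ratios used a pseudocount of 1 FPKM and genes with a mean of at least 1 FPKM (Python 3.11.15, pandas 2.3.3, numpy 2.4.6, scipy 1.17.1). Fragment steps came from loci of 400 to 3000 bp, of which 40 in estrus and 107 in diestrus lay within 0.5% of 1 to 3 fragments, against a median of 2 at other steps. Steps were tested on simulated data. The calls were checked only on made changes without noise, an outcome fixed by the formula. Fragments of JUN and JUNB took the locus span, less the fragment length that the steps gave, as length.

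Named genes were the 10 members and, from each list, the 4 counted genes of highest mean and the highest and lowest ratios among those above 0 in both libraries. A gene that this rule names in the list of secreted and effector genes is not reported here. Genes named outside the rule are marked as such. The members and lists were chosen with earlier results of these data known. Likeness of patterns cannot be measured over 2 libraries. Alternatives were other pseudocounts, filters, scalings and a 4-fold call.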

Additional observations from a re-analysis of the deposited data

How the results depend on the processing

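The count of immediate early genes higher in estrus stayed at 1, and that of genes lower at 4 or 5, under all alternatives tried. Their median log2 ratio of -1.68 was -0.51 with a pseudocount of 10, -0.99 with a mean of at least 10 FPKM and -0.81 with values above 0 in both libraries, or without FOS (chosen after the values were seen). FOSB was the median gene with a pseudocount of 10 and came to -0.51 there. The median over all genes was 0.51 with a mean of at least 10 FPKM and 0.13 with values above 0 in both libraries. With a pseudocount of 10 the list medians were -0.46 for FOS, JUN and ATF relatives, -0.34 for MYC partners and 0.86 for MYC targets. With a mean of at least 10 FPKM they were -0.92 for FOS, JUN and ATF relatives and 1.77 for MYC partners, of which 1 gene, MLX, remained. With values above 0 in both libraries they were -0.12 for these relatives and 0.052 for MYC partners. Equal sums gave -1.63 for other early transcription factors, -1.69 for feedback inhibitors, -1.43 for mRNA decay and 0.38 for MYC targets, and without the highest rows -1.22, -1.27, -1.03 and 0.76. Equal upper quartiles gave -1.07 for other early transcription factors, -1.18 for feedback inhibitors and 0.91 for MYC targets.

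Counts at 2-fold moved with these settings, and so did the shares over all genes. The share lower ran from 11.8% with a pseudocount of 10 to 47.9% with equal sums. The share higher ran from 17.1% with a pseudocount of 10 to 38.7% with a mean of at least 10 FPKM. With equal sums 5 of the 9 immediate early genes were lower, beside that 47.9% of all. Genes lower ran from 3 to 10 for FOS, JUN and ATF relatives (8 as reported), from 3 to 10 for other early transcription factors (8), from 6 to 15 for feedback inhibitors (10), from 3 to 6 for secreted and effector genes (6), from 0 to 7 for the MAP kinase pathway (4), from 0 to 8 for MYC partners (7), from 0 to 2 for MYC targets (1) and from 2 to 11 for mRNA decay (4). Genes higher ran from 1 to 4 (3), 0 to 3 (3), 2 to 5 (4), 6 to 11 (10), 4 to 7 (7), 0 to 2 (2), 5 to 9 (9) and 0 to 1 (1) for the same lists in that order. At 4-fold 1 immediate early gene was higher and 4 were lower, where 16.8% and 18.5% of all counted genes were. The shallower diestrus library limits ratios of genes under 3.76 FPKM there.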
